A study of Mus musculus with 24 samples.

Results

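Very long genes, with loci of roughly 200 kb or more, are described here by their mRNA in mouse B cells in which the gene for the elongation factor Spt5 had been targeted for deletion. The group was a fixed list of 42 gene names chosen for locus length, and 39 of the 42 had a row among the 14106 genes of the deposited count table. Auts2, Dpyd and Pard3 had none. Of the 39, 38 had enough counts to be among the 12024 genes tested, and Nbea did not. Locus lengths were taken as the list states them and were not measured, because the gene annotation at hand is of another build than the counts.

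The cells were B lymphocytes from mouse spleen, activated in culture with interleukin 4 and lipopolysaccharide (LPS) for 28 h and then given 2 µM 4-hydroxytamoxifen (4-HT) for 32 h, 60 h in all. The 3 libraries called Spt5-depleted came from Supt5hFl/- Rosa26ERT2-cre/+ cells, in which the drug activates a Cre recombinase expressed from the Rosa26 locus that acts on the floxed allele of the Spt5 gene, the other allele being null from the start. The 3 control libraries, called WT, came from Rosa26ERT2-cre/+ cells that received the same activation and the same drug. WT cells did not carry the null allele, so its effect and that of the induced deletion cannot be told apart, and the labels give neither the age nor the strain of the mice.

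Spt5 pairs with Spt4 to form DSIF, a factor that rides on RNA polymerase II. Together with NELF it holds the polymerase shortly after initiation, and after phosphorylation by P-TEFb it stays with the polymerase and supports its travel through the gene body. In a very long gene most of that travel is through introns, and several of these loci, such as Wwox, Fhit and Immp2l, are known as common fragile sites. The comparison asks whether the mRNA of such genes falls when the elongation factor is lost. The counts come from poly(A) RNA, whose level reflects both synthesis and decay, and they do not measure polymerase movement.

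The libraries held 17306549 to 25649611 counts, and the 3 Spt5-depleted libraries had the lowest totals. Supt5, the row of the targeted gene, had 3512 to 4666 counts in WT and 189 to 314 in Spt5-depleted libraries. Xist, the RNA of the inactive X chromosome, had 11367 to 20130 counts in WT and 18 to 40 in depleted libraries, so the groups also differ in Xist. As this difference separates the groups completely, its part in the results was not tested and cannot be told apart from that of the Spt5 deletion. Whether the groups differ in the sex of the mice was not tested. The row name of Xist ends in a suffix that possibly marks overlapping genes. The level of the Spt5 protein was not measured here. B cell markers summed to 5767 to 5843 CPM (TMM-normalised read counts scaled to a common library size) in WT and 4562 to 5214 CPM in depleted libraries, with 1 of 8 higher and 3 lower, and the T cell list, at 178 to 205 and 158 to 184 CPM, had 0 of 8 tested markers called. Of 10 listed macrophage and monocyte markers 8 had a row and 7 were tested, of which 5 were higher and 0 lower, with sums of 24.0 to 32.8 CPM in WT and 29.3 to 63.9 CPM in depleted libraries, and 2 of 3 tested dendritic cell markers were higher and 0 lower, with sums of 85.4 to 99.7 and 95.9 to 97.8 CPM. Of 3 tested NK cell markers 0 were higher and 1 lower, with sums of 11.7 to 18.3 CPM in WT and 6.79 to 11.8 CPM in depleted libraries. The 1 tested neutrophil marker was not called, and the 1 tested erythroid and platelet marker was higher. Their lists summed to at most 3.93 and 2.44 CPM in any library. The part of these cells in the results was not tested. In such bulk samples fewer cells of a type and less RNA per cell cannot be told apart.

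Few very long genes fell. Of the 38 tested, 16 rose, 4 fell and 18 did not pass the test (edgeR's quasi-likelihood test, two-sided, adjusted p under 0.05 over all tested genes). That is 42.1% higher and 10.5% lower, where the background over all 12024 tested genes was 31.8% higher and 30.6% lower. Their median log2 fold change was 0.17, against 0.0047 for all tested genes, and the interquartile range was -0.10 to 0.54, against -0.43 to 0.46. The median was 0.33 when libraries were scaled by their totals alone, a scaling that moved the median of all genes to 0.16 and gave 20 higher and 1 lower, against 41.3% and 22.4% of all genes. Without Spt5-depleted replicate 1 or 2 the lower genes numbered 2 (background 26.7% and 26.8%).

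**Figure D1:**
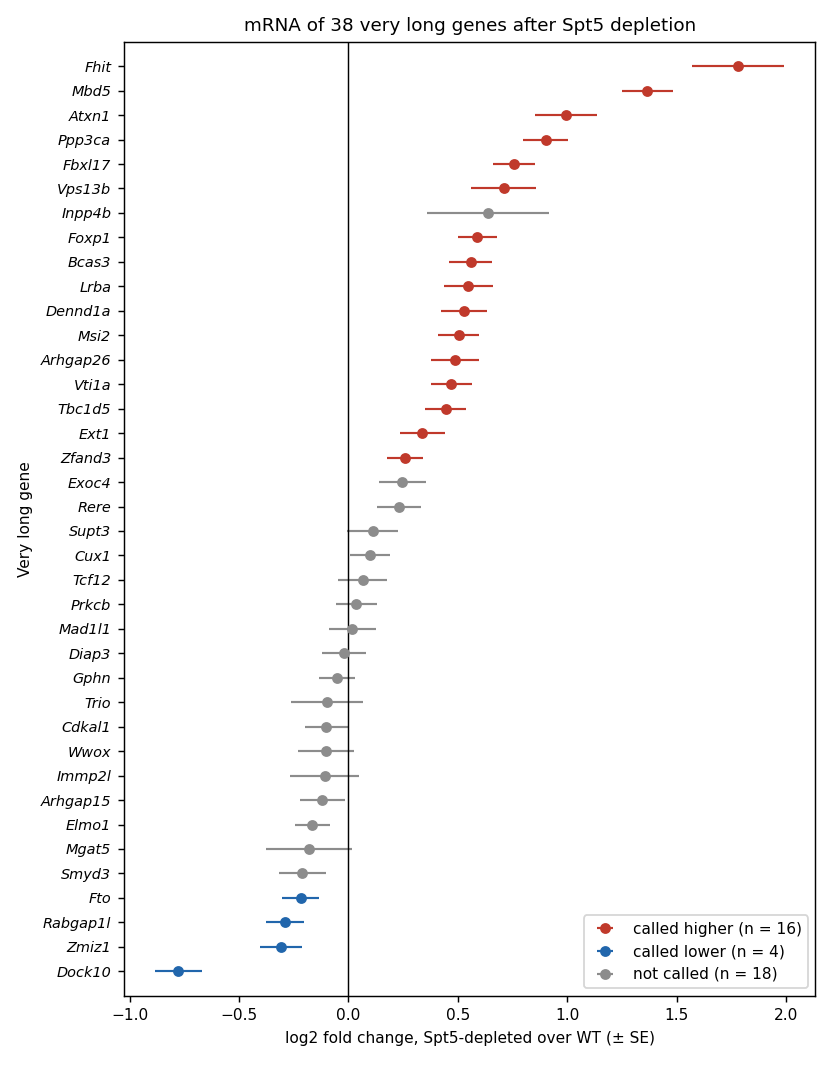
Log2 fold change of each tested very long gene (x axis, Spt5-depleted over WT, with SE bars) in order of size (y axis), coloured by the test result. The 16 genes called higher reach 1.78, the 4 called lower reach -0.78, and 18 were not called.

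Most changes were small. For 29 of 38 very long genes, 76.3%, the fitted change was under 1.5-fold in either direction, and the same held for 61.4% of all tested genes. Called changes of at least 2-fold were found for 2 members upward and 0 downward, where the background was 9.87% upward and 7.63% downward. Libraries of the groups did not overlap for 25 members: the depleted libraries were all higher for 18 and all lower for 7, against 34.2% and 33.3% of all tested genes. Every member that passed the test was among these 25.

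**Figure D2:**
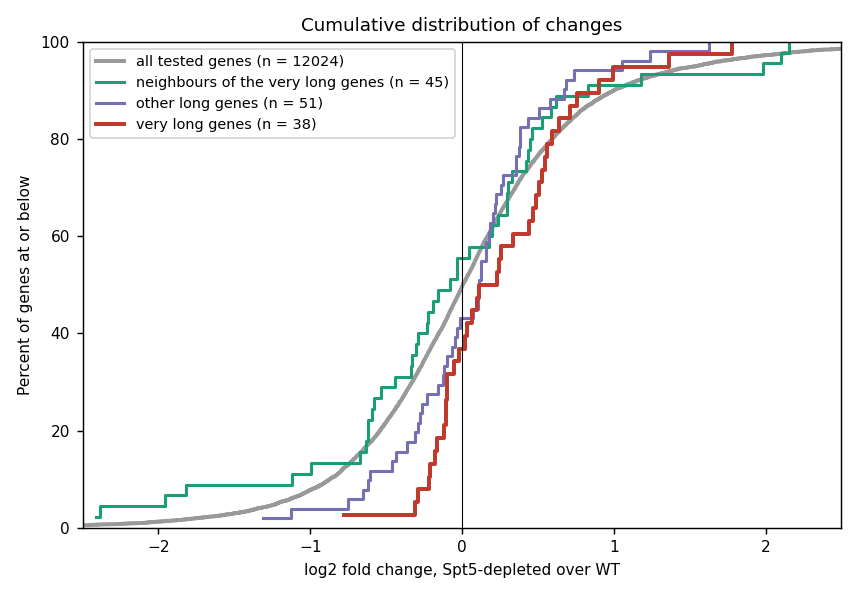
Cumulative distribution of log2 fold changes (x axis, Spt5-depleted over WT; y axis, percent of genes at or below that value) for the very long genes, all tested genes, other long genes and the protein-coding neighbours of the very long genes. The x axis ends at 2.5 on either side, which leaves out 238 of all tested genes; the curve of the very long genes begins at -0.78 and is at zero change with 14 of 38 genes below it.

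Fhit and Mbd5 were the 2 members that rose by at least 2-fold, and Dock10 had the largest fall of the 4. The 100 bases before the most upstream start that RefSeq gives for each (build GRCm38.p6, another build than that of the counts) are shown to set these genes' promoters side by side, from 5′ to 3′ on the gene's strand. Whether these starts are the ones used in these B cells was not tested. Capitals mark the GC box GGGCGG, a motif bound by Sp1-type factors, on either strand. They lie at chr14:11162036-11162135 on the minus strand for Fhit, chr2:48949408-48949507 on the plus strand for Mbd5 and chr1:80758554-80758653 on the minus strand for Dock10.
Fhit: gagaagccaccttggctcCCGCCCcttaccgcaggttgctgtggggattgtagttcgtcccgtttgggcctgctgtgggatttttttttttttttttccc
Mbd5: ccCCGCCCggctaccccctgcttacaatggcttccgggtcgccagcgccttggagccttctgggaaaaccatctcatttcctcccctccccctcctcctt
Dock10: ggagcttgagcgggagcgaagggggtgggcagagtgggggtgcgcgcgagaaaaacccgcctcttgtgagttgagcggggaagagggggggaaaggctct
The GC box occurs 1 time each in the Fhit and Mbd5 stretches, and these letters are not in the Dock10 stretch. In the longer window of 250 bases before to 50 after the start they occur 1, 4 and 2 times in Fhit, Mbd5 and Dock10. The TATA box letters TATAAA are in 0 of the 3 on either strand. The dinucleotide CG occurs 4, 5 and 7 times in Fhit, Mbd5 and Dock10.

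Promoters of the very long genes were searched over 250 bases before to 50 after the most upstream start, whose use in these cells was not tested. A promoter sequence of this window was found for 34 of the 42 names. Atxn1, Ppp3ca and Vps13b, which are among the 6 largest rises, were among the names without one. In this window 22 of the 34 held GGGCGG on either strand, 64.7%, and 2 held TATAAA on either strand, 5.88%. Among 9162 promoters matched to tested genes the shares were 65.0% and 7.0%, and among 27025 promoters of all genes 35.9% and 14.2%; the motifs do not overlap each other. Median GC content was 66.0% for the 34 and 60.7% for the tested genes. The 2 promoters with TATAAA belong to Arhgap15 and Elmo1, of which neither passed the test.

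Of 10 tested members with roles in transcription, chromatin and RNA 4 rose and 1 fell, with a median log2 fold change of 0.17, where the background was 31.8% higher and 30.6% lower. The role groups used here and below were set after the values had been seen. Mbd5, a methyl-CpG-binding-domain protein found with a histone H2A deubiquitinase, had 18.0, 20.1 and 15.2 CPM in WT libraries and 47.0, 41.2 and 49.3 CPM in Spt5-depleted libraries. Each depleted library thus stood above every WT library, a 2.58-fold rise (log2 fold change 1.37 ± 0.12 SE, edgeR adjusted p = 1.63e-07).

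Atxn1, the polyglutamine protein ataxin 1 that binds the repressor Capicua, had 31.2, 29.3 and 19.5 CPM in WT and 53.5, 53.7 and 52.1 CPM in depleted libraries. WT replicate 3 was the low library among the controls, and the groups did not overlap (log2 fold change 0.99 ± 0.14 SE, edgeR adjusted p = 6.02e-05). Foxp1, a forkhead factor needed for B cell development, rose from 412 ± 32.1 to 620.3 ± 36.6 CPM (SD over 3 libraries each; edgeR adjusted p = 4.8e-05, log2 fold change 0.59). Msi2, the RNA-binding protein Musashi 2, rose from 106 ± 9.20 to 149.7 ± 12.2 CPM (SD, n = 3 each; edgeR adjusted p = 0.000293).

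Zmiz1, a PIAS-like coactivator, was the 1 member of this group that fell. It had 303, 303 and 252 CPM in WT and 223, 220.2 and 249 CPM in depleted libraries. Spt5-depleted replicate 3 came close to WT replicate 3 without reaching it, and the log2 fold change was -0.31 ± 0.10 SE (edgeR adjusted p = 0.0111). The call was lost with library totals alone (adjusted p = 0.198) and without Spt5-depleted replicate 2 (adjusted p = 0.0628).

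The other 5 members of this group did not pass the test. Rere, an atrophin-family corepressor, had a log2 fold change of 0.23 (edgeR adjusted p = 0.0587), and passed with library totals alone, upper-quartile scaling, a minimum mean of 5 CPM or without Spt5-depleted replicate 2. Without Spt5-depleted replicate 3 it stood at 0.14 (adjusted p = 0.29). Supt3, a subunit of the SAGA coactivator, stood at 0.11, the homeodomain factor Cux1 at 0.10 and Tcf12, the E-protein HEB, at 0.07. Cux1 passed with library totals alone (adjusted p = 0.0227). Smyd3, a lysine methyltransferase, had 16.6, 15.8 and 16.8 CPM in WT and 14.1, 15.1 and 13.4 CPM in depleted libraries, which do not overlap, and did not pass (log2 fold change -0.21 ± 0.11 SE, edgeR adjusted p = 0.101).

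Regulators of small GTPases, the cytoskeleton and signalling included the deepest fall. Of 9 tested members 2 rose and 1 fell, with a median log2 fold change of -0.02, against the same background of 31.8% and 30.6%. Dock10, an exchange factor for Cdc42 and Rac known to be induced by interleukin 4 in B cells, had 771, 745 and 594 CPM in WT and 388, 395 and 448 CPM in depleted libraries. All 3 depleted libraries were below all 3 WT libraries, with a 1.71-fold difference (edgeR adjusted p = 1.65e-05, log2 fold change -0.78 ± 0.11 SE). It was the 1 fallen member that kept its call in all 14 alternatives, with log2 fold changes from -0.89 to -0.62.

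Ppp3ca, the alpha catalytic subunit of the calcium-dependent phosphatase calcineurin, moved the other way. It had 60.1, 55.7 and 44.9 CPM in WT and 99.2, 98.8 and 102 CPM in depleted libraries, so the depleted libraries lay close together and far above the controls (log2 fold change 0.90 ± 0.10 SE, edgeR adjusted p = 3.31e-06). Arhgap26, a GTPase-activating protein, rose from 27.0 ± 4.09 to 37.8 ± 0.860 CPM (SD, n = 3 each; edgeR adjusted p = 0.00147). Inpp4b, a phosphatase of the phosphoinositide pathway, had 7.12, 6.27 and 2.80 CPM in WT and 8.93, 7.63 and 8.61 CPM in depleted libraries. WT replicate 3 was the low control, and the change did not pass (log2 fold change 0.64, 95% interval 0.01 to 1.27, edgeR adjusted p = 0.0709), although it did in 6 of the alternatives. Without WT replicate 3 its log2 fold change was 0.32 (adjusted p = 0.0848) and without WT replicate 1 it was 0.89 (adjusted p = 0.017).

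Elmo1, which works with DOCK proteins, had 370, 382 and 376 CPM in WT and 325, 336 and 345 CPM in depleted libraries. The groups did not overlap, and the log2 fold change of -0.16 ± 0.08 SE did not pass (edgeR adjusted p = 0.0839). Prkcb, the protein kinase C that links the B cell receptor to NF-kB, stood at 168 ± 19.8 and 172 ± 3.38 CPM (SD, n = 3 each), with a 95% interval of the log2 fold change from -0.16 to 0.24. The formin Diap3, the exchange factor Trio and the Rac regulator Arhgap15 had log2 fold changes of -0.02, -0.10 and -0.12 with adjusted p of 0.871, 0.624 and 0.333 (edgeR). The row name of Arhgap15 ends in a suffix, possibly a mark of overlapping genes, and such a row may hold reads of the gene it overlaps.

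Of 8 tested members that act in membrane traffic 6 rose and 1 fell, with a median log2 fold change of 0.50, where the background was 31.8% and 30.6%. Vps13b, a lipid transfer protein of the Golgi, had 96.6, 85.5 and 61.7 CPM in WT and 118, 136 and 145 CPM in depleted libraries. Both groups spread widely and still did not overlap (log2 fold change 0.71 ± 0.15 SE, edgeR adjusted p = 0.00149). Lrba, a BEACH-domain protein that protects CTLA4 from lysosomal breakdown, rose from 75.6 ± 13.7 to 110.5 ± 4.23 CPM (SD over 3 libraries each; edgeR adjusted p = 0.000685, log2 fold change 0.55).

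Bcas3, an autophagy-linked scaffold, and Dennd1a, an exchange factor for Rab35, rose with log2 fold changes of 0.56 and 0.53 (edgeR adjusted p = 0.000163 and 0.000561), and both rows carry the overlap suffix. The SNARE Vti1a stood at 0.47 and Tbc1d5, which regulates Rab7 at the retromer, at 0.44, both called higher. Exoc4, a subunit of the exocyst, had 87.9, 85.7 and 65.4 CPM in WT and 90.0, 96.1 and 97.2 CPM in depleted libraries. Spt5-depleted replicate 1 stood just above WT replicate 1, and the change did not pass (log2 fold change 0.25, 95% interval 0.02 to 0.47, edgeR adjusted p = 0.058), although it did in 5 of the alternatives, among them library totals alone. Without WT replicate 3 its log2 fold change was 0.12 (adjusted p = 0.226).

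Rabgap1l, a GTPase-activating protein for Rab proteins, was the member of this group that fell. It had 108, 108 and 95.6 CPM in WT and 81.1, 88.4 and 85.0 CPM in depleted libraries, without overlap (log2 fold change -0.29 ± 0.09 SE, edgeR adjusted p = 0.0092). The call was lost with library totals alone (adjusted p = 0.213) and without Spt5-depleted replicate 1 (adjusted p = 0.054). Nbea, a BEACH-domain relative of Lrba known mainly from neurons, had 20, 14 and 10 counts in WT and 4, 2 and 9 counts in depleted libraries, too few for the filter; without the filter its log2 fold change was -1.38 ± 0.52 SE (edgeR adjusted p = 0.0315).

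**Figure D3:**
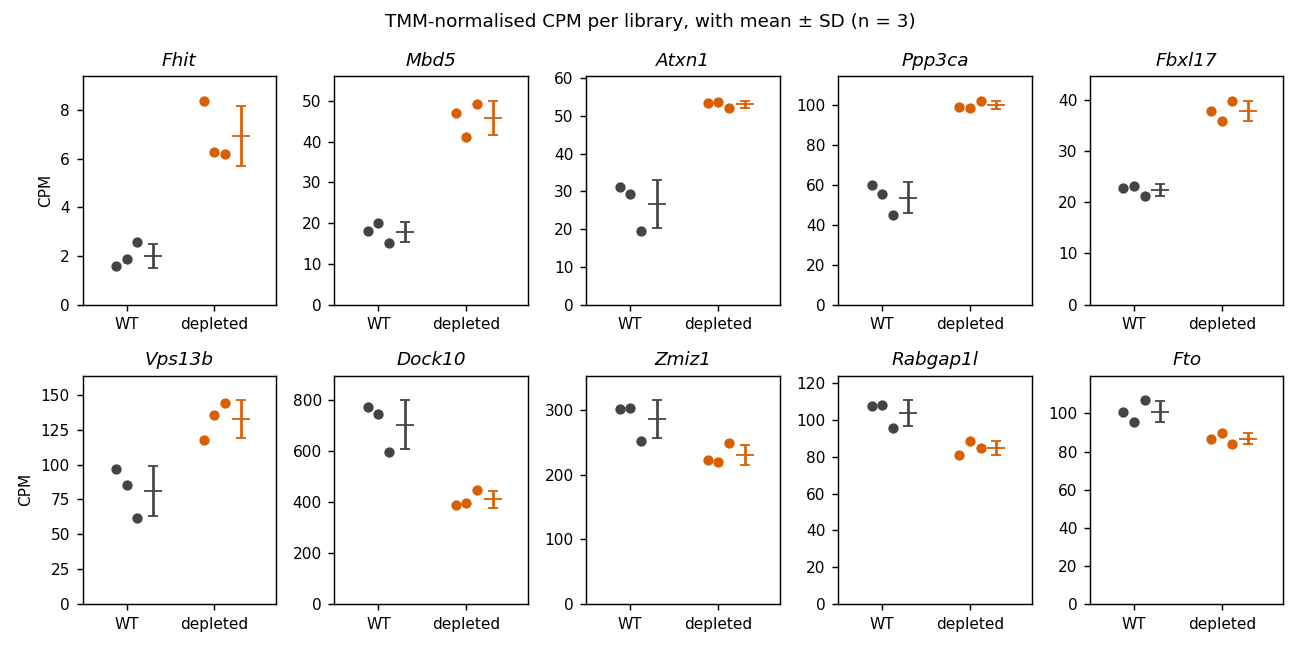
TMM-normalised CPM (y axis, from 0) in each of the 3 WT and 3 Spt5-depleted libraries (points), with mean and SD beside them, for the 6 largest rises and the 4 falls among the very long genes. In each panel the groups do not overlap; Fhit went from 2.01 to 6.95 CPM and Dock10 from 703 to 410.5 CPM.

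Among enzymes and the remaining members 4 of 11 tested rose and 1 fell, with a median log2 fold change of -0.05, where the background was 31.8% higher and 30.6% lower. Fhit, which cleaves diadenosine triphosphate, had 38, 41 and 62 counts in WT and 150, 134 and 143 counts in depleted libraries, or 1.60, 1.86 and 2.55 CPM against 8.37, 6.28 and 6.19 CPM. The lowest depleted library was above the highest WT library in both counts and CPM. This 3.44-fold rise was the largest among the very long genes (log2 fold change 1.78 ± 0.21 SE, edgeR adjusted p = 4.19e-06), and it kept its call in the 13 alternatives that tested it, at 1.63 to 1.99.

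Fbxl17, a substrate receptor of an SCF ubiquitin ligase, had 22.8, 23.2 and 21.1 CPM in WT and 37.7, 35.9 and 39.8 CPM in depleted libraries. Both groups were tight, and the log2 fold change was 0.76 ± 0.09 SE (edgeR adjusted p = 7.59e-06). Ext1, a polymerase of heparan sulfate, and the zinc finger protein Zfand3 rose less, with log2 fold changes of 0.34 and 0.26 (edgeR adjusted p = 0.00944 and 0.012).

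Fto, an RNA demethylase, fell by the smallest called amount. It had 101, 95.5 and 107 CPM in WT and 86.4, 89.9 and 84.2 CPM in depleted libraries, a log2 fold change of -0.22 ± 0.08 SE (edgeR adjusted p = 0.0343). The call was lost with library totals alone (adjusted p = 0.556), without WT replicate 3 (adjusted p = 0.0635) and without Spt5-depleted replicate 1, 2 or 3 (adjusted p = 0.096, 0.0617 and 0.111).

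The fragile-site genes Wwox and Immp2l did not pass the test. Wwox, an oxidoreductase with WW domains, had 8.68, 8.36 and 8.11 CPM in WT and 7.87, 7.54 and 8.01 CPM in depleted libraries, so the depleted libraries were all slightly lower. Its log2 fold change was -0.10, with a 95% interval from -0.38 to 0.17 (edgeR adjusted p = 0.501). Immp2l, a subunit of the mitochondrial inner membrane peptidase, had 9.98, 8.27 and 9.22 CPM in WT and 9.55, 9.51 and 6.53 CPM in depleted libraries, which overlap (log2 fold change -0.11, 95% interval -0.45 to 0.23, edgeR adjusted p = 0.566). Fhit, of the same kind, rose as given above.

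The other members of this group also missed the threshold. Gphn, gephyrin, which acts in molybdenum cofactor synthesis, had a log2 fold change of -0.05, the spindle checkpoint protein Mad1l1 0.02 and the tRNA-modifying enzyme Cdkal1 -0.10. Mgat5, which branches N-glycans, had 11.0, 10.2 and 6.09 CPM in WT and 7.09, 7.87 and 9.0 CPM in depleted libraries. WT replicate 3 was again the low control, and its log2 fold change was -0.18 (95% interval -0.61 to 0.25, edgeR adjusted p = 0.441). Without WT replicate 3 Mgat5 was called lower, at -0.41 (adjusted p = 0.0245), and leaving out another library gave -0.27 to -0.022, the nearest to 0 without WT replicate 1.

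A missed threshold does not show that levels were equal, so the intervals were read for all 18 such members. For 16 of the 18 the 95% interval of the change lay inside 1.5-fold in either direction. The exceptions were Inpp4b and Mgat5. For 3 of the 18, Exoc4, Rere and Inpp4b, the unadjusted p was under 0.05.

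**Figure D4:**
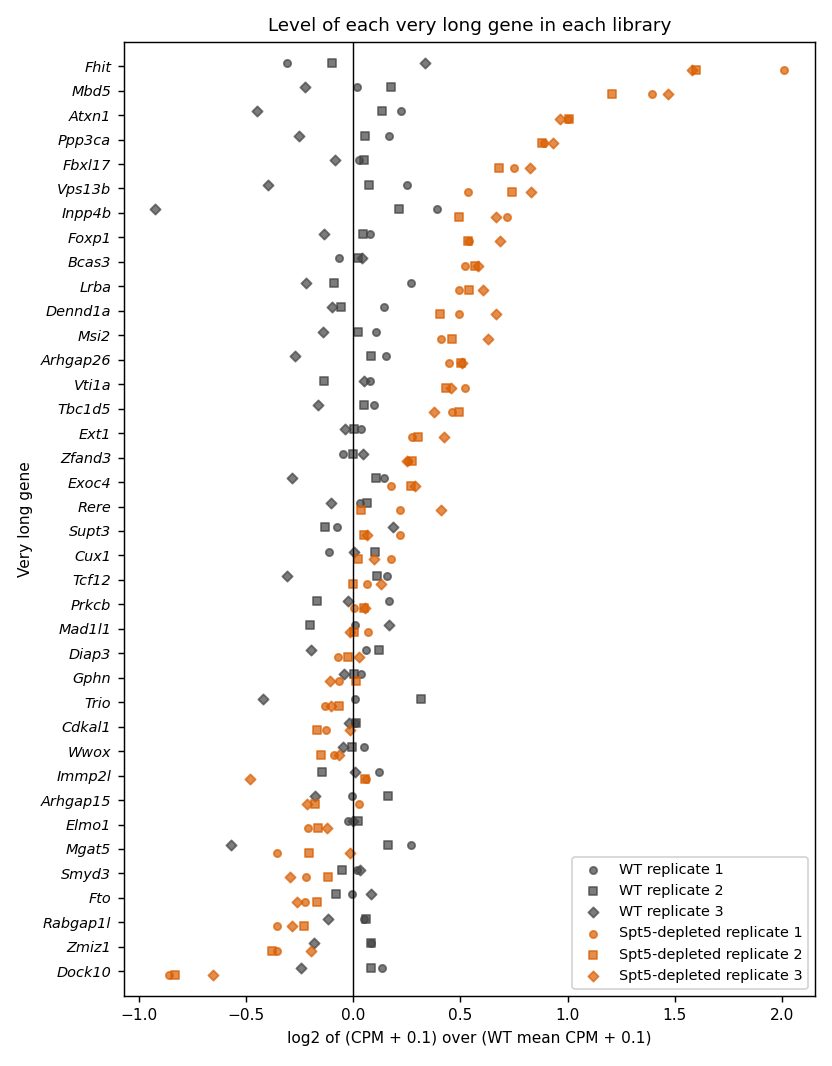
Level of each tested very long gene in each library, as log2 of CPM over the WT mean with 0.1 CPM added to both (x axis), genes in order of fold change (y axis), WT in grey and Spt5-depleted in orange with a marker for each replicate. WT replicate 3 is the lowest WT library for 26 of 38 genes.

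Libraries of a group also differed in these genes. WT replicate 3 was the lowest of the WT libraries for 26 of 38 members, 68.4%, where the share was 34.1% over all tested genes, and its median log2 level against the WT mean was -0.11, against 0.06 and 0.05 for WT replicates 1 and 2. The same median was 0.20, 0.05 and 0.19 for Spt5-depleted replicates 1, 2 and 3, so Spt5-depleted replicate 2 stood near WT replicates 1 and 2. Members above their WT mean numbered 30, 26 and 11 of 38 in WT replicates 1 to 3. In depleted replicates 1 to 3 they numbered 26, 25 and 24. Over all 12024 tested genes the 6 libraries had 5687 to 6126 genes above the WT mean. Spt5-depleted replicate 3 was the highest depleted library for 22 of 38 members, 57.9%, where the share over all tested genes was 35.2%. Over the same 38 members, 16 were higher and 4 lower without WT replicate 3, and 16 and 3 without Spt5-depleted replicate 3. Over all genes these fits gave 3784 higher and 3620 lower of 12223, and 3485 and 3338 of 12240.

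The members were also counted by level, as the mean of both groups in CPM. Of 21 members between 20 and 100 CPM 11 rose and 2 fell, 52.4% and 9.52%, where all tested genes of that range had 33.6% and 30.8%. Of 8 members above 100 CPM 3 rose and 2 fell, where all tested genes of that range had 26.1% higher and 40.4% lower. Of 9 members under 20 CPM 2 rose, Fhit and Ext1, and 0 fell, where all tested genes of that range had 32.9% higher and 26.1% lower.

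The authors' deposited table holds the authors' own test of the same counts. At an adjusted p under 0.05 in the authors' deposited table, 17 of the 39 members were higher and 4 lower, where the shares over its 14106 genes were 26.4% and 25.7%. The log2 fold changes of the authors' deposited table differed from those given here by at most 0.014 for the 38 tested members. Among these 38 the call differed for 1 member, Inpp4b, at 0.63 with an adjusted p of 0.0279 in the authors' deposited table. Nbea, called lower here only without the filter, stood at -1.42 in the authors' deposited table. Its adjusted p there was 0.0811, so it was not called.

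Paralogs and direct partners of the members, 123 genes listed by protein function, went both ways. Of 113 tested 39 rose and 29 fell, 34.5% and 25.7%, where the background was 31.8% and 30.6%. Their median log2 fold change was 0.03, and 73.5% changed by less than 1.5-fold, near the 76.3% of the members and against 61.4% of all tested genes. Extl2, a relative of Ext1, rose from 18.6 ± 1.38 to 54.7 ± 4.01 CPM, Atn1, the partner paralog of Rere, from 39.3 ± 1.63 to 77.1 ± 5.38 CPM and Stx6, a SNARE partner of Vti1a, from 40.8 ± 0.371 to 82.3 ± 8.31 CPM (SD, n = 3 each; edgeR adjusted p = 9.6e-09, 3.95e-07 and 4.04e-07). Satb1, a chromatin organiser related to Cux1, fell from 617 ± 43.0 to 159 ± 10.7 CPM, Exoc6, another exocyst subunit, from 52.4 ± 2.41 to 23.5 ± 0.447 CPM and Smyd2 from 53.4 ± 8.21 to 25.4 ± 0.606 CPM (SD, n = 3 each; edgeR adjusted p = 4.91e-10, 7.01e-08 and 1.16e-06). The members Cux1, Exoc4 and Smyd3 did not pass the test, and the differences between relative and member were not tested.

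Another 61 genes held to have long loci, listed from general knowledge and likewise without measured lengths, were set beside the members. Of 51 tested 14 rose and 9 fell, 27.5% and 17.6%, where the background was 31.8% and 30.6%. Their median log2 fold change was 0.11, and 76.5% changed by less than 1.5-fold, against 61.4% of all tested genes. Trappc9, of the TRAPP trafficking complex, Nsmce2, a SUMO ligase, and Setbp1, a SET-binding protein, rose with log2 fold changes of 1.05, 0.68 and 1.24. Bach2, a repressor that restrains plasma cell differentiation, Mef2c, a B cell transcription factor, and Mllt3, a partner of the super elongation complex, fell with log2 fold changes of -1.31, -1.12 and -0.60. The row of Bach2 carries the overlap suffix.

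The protein-coding genes next to the members in RefSeq's order of start positions (GRCm38.p6, used for order alone) were counted in the same fit. Of 84 such neighbours 45 were tested, of which 12 rose and 18 fell, 26.7% and 40.0%, where the background was 31.8% and 30.6%. Their median log2 fold change was -0.08. Next to members that rose, 5 tested neighbours rose, 7 fell and 7 did not pass. Satb1, beside Tbc1d5, fell with a log2 fold change of -1.96 where Tbc1d5 rose by 0.44. Sh2b2, an adaptor of receptor signalling beside Cux1, and Lrrn3, a leucine-rich repeat protein beside Immp2l, fell with log2 fold changes of -1.82 and -2.38. Il15, a cytokine gene beside Inpp4b, Gpr52, a receptor gene beside Rabgap1l, and Gatsl2, beside Auts2, rose with log2 fold changes of 2.1, 1.98 and 1.18.

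Of the neighbours of Mbd5, Fhit and Dock10, named after their values were seen, 3 were tested. Orc4, of the origin recognition complex beside Mbd5, had a log2 fold change of -0.22 (edgeR adjusted p = 0.0354), and its row carries the overlap suffix. Epc2, of a histone acetyltransferase complex on the other side of Mbd5, had -0.19 (edgeR adjusted p = 0.114), where Mbd5 stood at 1.37. Cul3, a ubiquitin ligase scaffold beside Dock10, had -0.16 (edgeR adjusted p = 0.109), where Dock10 stood at -0.78. The difference between a member and its neighbour was not tested.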

How the data were processed

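The 6 RNA-seq libraries, 3 of each group, were analysed; groups come from the sample titles, the columns named KO being the Spt5-depleted libraries, and 18 samples of other assays were not used here. Per the submitters' processing notes, the build was mm9 and the tools were featureCounts 1.5.0-p1, TopHat, Bowtie2 2.1.0, DESeq2 1.10.1 and cutadapt 1.10; what each did, the annotation, the strand setting and multi-mapping are not stated in the notes. The deposited table holds whole read counts per gene, not normalised by the authors, and each gene has at least 10 counts in all. Its 2 further columns are a log2 fold change from the authors and an adjusted p-value from the authors, printed only where the table is named. On 2005 rows, 3 of them of the genes described, the name ends in a suffix that possibly marks overlapping genes.

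Counts were fitted in R 4.3.3 with edgeR 4.0.16 (filterByExpr, TMM scaling, robust quasi-likelihood F test, two-sided, Benjamini-Hochberg adjustment over all 12024 tested genes, threshold 0.05). CPM are counts over TMM-scaled library totals, and standard errors come from the F statistic. The 95% intervals come from these errors and the total degrees of freedom of the fit, residual plus prior. TMM rests on most genes being unchanged, although 62.4% were called, and a change in total mRNA per cell cannot be seen from these counts. Depth was 17306549 to 25649611 counts per library, and the biological coefficient of variation was 0.098. Within groups, replicates differed beyond counting noise (chi-square per degree of freedom 5.65 to 28.1). The labels do not say whether libraries of a group came from separate mice, so p-values reflect only the spread among these libraries, possibly a technical one. The fit was also run on simulated data in which few genes changed, unlike here, so that run does not bear on what TMM rests on. Alternatives were DESeq2 1.42.0 size factors and Wald test, library totals, upper-quartile factors, a minimum mean of 5 CPM, no filter, limma 3.58.1 voom, the replicate number as a block, stricter thresholds and leaving out each library.

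The genes described and the lists were chosen with earlier results of these data known. Every gene of the list is named. Values in every library are given for the 6 largest rises and all falls among called genes (the rule allows 6 falls), for Wwox, Fhit, Immp2l and Exoc4, and for calls lost under another scaling, plus some added after the values were seen. Of other lists at most 3 risen and 3 fallen genes with the smallest p are named. The tested neighbours of Mbd5, Fhit and Dock10 were added after the values were seen.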

Additional observations from a re-analysis of the deposited data

How the results depend on the processing

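All 16 genes called higher kept direction and call in the 14 alternatives that refit the counts (13 for Fhit, which is below a mean of 5 CPM), and of the 4 called lower Dock10 did. The median log2 fold change of the very long genes was 0.17, and 0.33 with library totals alone; leaving out 1 library gave 0.063 to 0.20, the lowest without Spt5-depleted replicate 1, where Nbea passed the filter and 39 genes were tested. Over the same 38 genes, a count chosen after seeing the data, leaving out 1 library gave 0.14 to 0.20, and 0.15 without that replicate. The count of lower genes was 4, and 1 with library totals alone, 2 at an adjusted p under 0.01 and 0 at 2-fold or more. Over all 12024 genes these settings gave 3681, 2694, 2919 and 917 lower. Leaving out 1 library gave 2 to 5 lower members, and 3281 to 3678 lower over all genes. At 2-fold or more the higher genes numbered 2, against 16, and over all genes 1187 were higher and 917 lower, against 3823 and 3681. Without the filter Nbea was added and called lower. Setting aside the 3 rows with the overlap suffix, an alternative chosen after seeing the data, left 14 higher and 4 lower of 35. Over all genes it left 3821 higher and 3681 lower of 12021.

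With library totals alone the signs of 7 genes that did not pass turned, to log2 fold changes of 0.039 for Arhgap15, 0.057 for Wwox, 0.048 for Immp2l, 0.11 for Gphn, 0.059 for Cdkal1, 0.14 for Diap3 and 0.063 for Trio. Leaving out 1 library gave -0.076 to 0.11 for Mad1l1, -0.046 to 0.12 for Prkcb, -0.072 to 0.15 for Tcf12, -0.20 to 0.062 for Immp2l, -0.12 to 0.038 for Diap3 and -0.28 to 0.086 for Trio. The cause was not tested. With the replicate number as a block 17 genes were higher and 3 lower, and 3755 and 3614 over all genes; Inpp4b gained its call (adjusted p = 0.0238) and Fto missed it (adjusted p = 0.0691). Same-numbered libraries did not deviate together (Pearson r over genes 0.04, -0.04 and -0.01), and not every library correlated best with its own number. With 3 libraries per group this cannot decide whether same-numbered libraries were prepared together. Within each such pair the numbers that end the sample titles are consecutive. Depth limits Nbea, at 2 to 20 counts per library.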
